A study of Mus musculus with 7 samples.

Results

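The genes described here encode 10 proteins that hepatocytes secrete into plasma, most of them carriers, and they are commonly grouped as negative acute phase proteins: Alb, Ttr, Rbp4, Trf, Ahsg, Gc, Serpina6, Serpina7, Azgp1 and Pon1. They were chosen by gene symbol, and each of the 10 was found in the count table of 56691 genes. The livers came from male C57BL/6J mice, an inbred strain, bought at 8 weeks of age and acclimatised for 2 weeks on standard chow. One group was injected intraperitoneally with lipopolysaccharide (LPS), a component of the outer membrane of Gram-negative bacteria, at 10 mg/kg and killed 24 h later (3 mice sequenced), and the control group, for which the sources name no injection, had 4 mice sequenced. The study kept 6 mice in each group, and its mice given sulforaphane before LPS were not analysed here. The comparison asks how the transcripts of these proteins differed in liver a day after an LPS dose used as a model of septic liver injury.

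Hepatocytes make most of the proteins of plasma, among them carriers that bind hormones, vitamins, metals and lipids and take them to other tissues. In the acute phase response, inflammatory cytokines change the output of the hepatocyte: some plasma proteins, such as serum amyloid A and haptoglobin, are made in larger amounts (positive acute phase proteins), while the concentrations of others, with albumin and transthyretin as the classical examples, go down (negative acute phase proteins). The grouping comes mostly from protein concentrations in human plasma, and species can differ in which proteins belong to each class.

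The measurement was the number of sequencing reads counted on each gene in polyadenylated liver RNA. Total counts were 14991022, 15096573, 15721944 and 18584140 in control replicates 1 to 4, and 20500391, 17095607 and 17821331 in LPS replicates 1 to 3. Some libraries stood apart from the rest. Mitochondrially encoded genes took 23.7% of all counts in control replicate 1, against 14.6%, 7.48% and 8.96% in the other control mice and 6.45%, 3.83% and 3.94% in the LPS group. LPS replicates 2 and 3 were closer to each other than any other pair within a group, with an SD of their log2 ratio of 0.102 over well counted genes against 0.294 to 0.578 in the other pairs. They were kept as separate mice because they are labelled so. Their difference was 3.81 times the variance that counting alone gives. That value covers counting error only, so it cannot tell separate mice from separate libraries of the same liver. Where a gene discussed below lost its call in edgeR's test without one of these libraries, this is stated beside it.

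Levels are given as CPM, counts per 1000000 counts of a library after scaling with edgeR's TMM factors, and shares as percent of all counts of a library. LPS was tested against control with the quasi-likelihood F test of edgeR (QL F test) over 13683 genes that passed its filter on low counts. A gene was called higher or lower at a p below 0.05 after Benjamini-Hochberg (BH) adjustment over all of them. The log2 fold change (log2FC) is LPS over control, so that negative values are lower in LPS treated mice.

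All 10 carrier genes passed the filter and were tested. Of these, 6 were lower in LPS treated mice (Alb, Ttr, Rbp4, Serpina6, Serpina7 and Pon1), beside 13.0% of all tested genes called lower. Without LPS replicate 2, Alb and Rbp4 were not called and 4 were lower, beside 8.11% of all genes tested in that fit, and without LPS replicate 3 Alb was not called and 5 were lower, beside 8.23%. A single carrier gene, Trf, was higher, beside 13.3% of all tested genes called higher and 26.3% called in either direction. The remaining 3, Ahsg, Gc and Azgp1, did not pass the test. With an absolute log2 fold change above 1 required as well, 4 were lower and 1 was higher (7.31% and 7.81% of all genes, 15.1% in either direction). In CPM the groups did not overlap for 7 genes that were lower and 1 that was higher, beside 17.4% and 18.1% of all tested genes (35.4% in either direction), and they overlapped for Ahsg and Gc. The median log2 fold change was -0.82 over the carrier genes and -0.01 over all genes tested. Trf went against the name negative acute phase, and Ahsg, Gc and Azgp1 did not pass the test, so the genes are called carrier genes here for short, although Pon1 is an esterase and Azgp1 is not known mainly as a carrier.

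**Figure D1:**
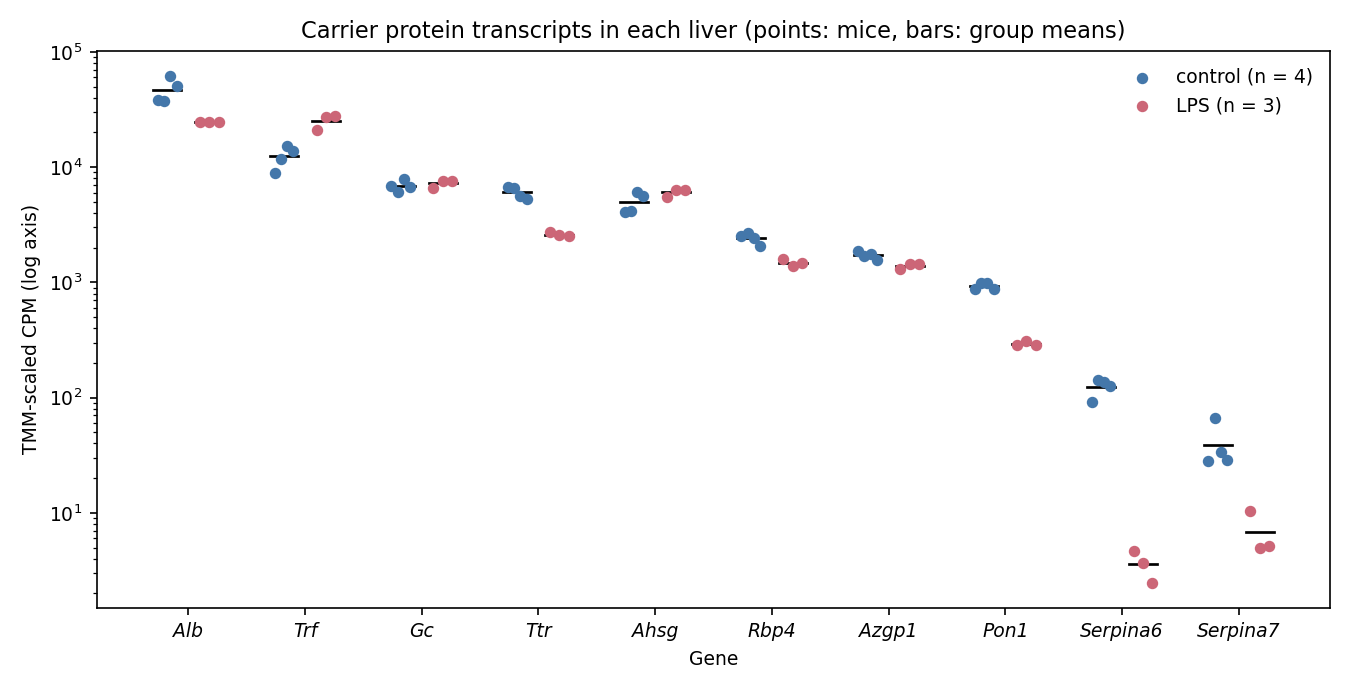
TMM-scaled CPM of the 10 carrier genes in each mouse, on a log axis, with control mice (n = 4) in blue, LPS treated mice (n = 3) in red and black bars at the group means. The points of Serpina6 are farthest apart between groups, those of Gc and Ahsg overlap, and those of Trf are higher after LPS.

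Albumin (Alb, ENSMUSG00000029368) is the main protein of plasma, carries fatty acids, bilirubin and many hormones and drugs, and maintains the osmotic pressure of plasma. It had 37916, 37734, 61619 and 50434 CPM in control replicates 1 to 4 and 24614, 24631 and 24665 CPM in LPS replicates 1 to 3. The LPS treated mice lay within a very narrow range below all control mice, which were themselves spread, with replicate 3 highest. The mean was 46926 ± 11458 CPM (SD, n = 4) in control mice and 24637 ± 25.9 CPM (SD, n = 3) in LPS treated mice. The log2FC was -0.93 (SE 0.24, 95% interval -1.46 to -0.40, BH-adjusted p = 0.0137, edgeR QL F test). This call was lost without LPS replicate 2 (BH-adjusted p = 0.0618), without LPS replicate 3 (BH-adjusted p = 0.0642) and with both summed into 1 sample (BH-adjusted p = 0.0653, edgeR QL F test), while the log2FCs were -0.93, -0.93 and -0.92. As a share of all counts, Alb took 3.58%, 3.97%, 6.42% and 5.62% in control mice and 2.61%, 2.24% and 2.23% in LPS treated mice. These shares did not overlap either, but the difference of means gave an exact permutation p of 0.0571 (two-sided, 35 splits), above the smallest p of 0.0286 that 4 mice against 3 allow. Control replicates 1 and 2, with the lowest shares of Alb, had the highest shares of mitochondrial counts. With mitochondrial genes left out of the total, the Alb shares of the control mice were 4.69%, 4.65%, 6.94% and 6.17%, those of the LPS treated mice 2.79%, 2.33% and 2.32%, and the exact permutation p was 0.0286. In bulk liver RNA, fewer hepatocytes and less of a transcript in each hepatocyte cannot be told apart.

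Transthyretin (Ttr), retinol-binding protein 4 (Rbp4) and thyroxine-binding globulin (Serpina7) carry thyroid hormone and vitamin A. Transthyretin binds thyroxine and also the complex of Rbp4 with retinol, which it keeps from being filtered in the kidney. Ttr (ENSMUSG00000061808) had 6664.8, 6633.3, 5647.1 and 5322.3 CPM in control mice and 2717.5, 2550.3 and 2511.7 CPM in LPS treated mice. Every LPS treated mouse was at about the same level, below every control mouse. The log2FC was -1.23 (SE 0.18, BH-adjusted p = 2.54e-04, edgeR QL F test). Rbp4 (ENSMUSG00000024990) had 2507.8, 2697.5, 2430.2 and 2075.8 CPM in control mice and 1586.4, 1389.8 and 1471.5 CPM in LPS treated mice. The groups did not overlap, but control replicate 4 came closest to the LPS group, and the log2FC of -0.71 (SE 0.16, BH-adjusted p = 0.00661, edgeR QL F test) was closer to 0 than that of Ttr, a difference that was not tested. Without LPS replicate 2 the call of Rbp4 was lost, with a log2FC of -0.66 (BH-adjusted p = 0.0509, edgeR QL F test). Within each liver, Ttr had 266, 246, 232 and 256 counts per 100 counts of Rbp4 in control mice and 171, 184 and 171 in LPS treated mice. This ratio was lower in each of the 3 LPS treated mice than in any control mouse, and it was not tested.

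Serpina7 (ENSMUSG00000031271), a serpin without protease inhibitor activity, binds thyroxine with high affinity. Per kilobase of exon it had the lowest level of the carrier genes in control liver. Its counts were 399, 1048, 557 and 589 in control mice and 224, 77 and 83 in LPS treated mice. In CPM these were 28.2, 66.1, 34.0 and 28.5 against 10.3, 4.96 and 5.16. Control replicate 2 stood well above the other control mice, and LPS replicate 1 above the other LPS treated mice, but the groups did not overlap. The log2FC was -2.51 (SE 0.35, BH-adjusted p = 2.01e-04, edgeR QL F test) and stayed between -2.95 and -2.14 when each mouse was left out in turn, with -2.14 in the fit without control replicate 2.

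Corticosteroid-binding globulin (Serpina6, ENSMUSG00000060807), the serpin that carries glucocorticoids in plasma, had the lowest log2FC of the carrier genes. It had 1292, 2258, 2242 and 2612 counts in control mice and 102, 57 and 40 counts in LPS treated mice. Scaled to library size, the control mice had 91.3, 142, 137 and 126 CPM and the LPS treated mice 4.70, 3.67 and 2.49 CPM. Thus the transcript was still detected in each LPS treated mouse, above the floor of 3 counts, but far below all control mice. The means were 124 ± 22.9 CPM (SD, n = 4) without and 3.62 ± 1.11 CPM (SD, n = 3) after LPS. The fitted level was 34.0-fold lower after LPS, a log2FC of -5.09 (SE 0.26, 95% interval -5.64 to -4.53, BH-adjusted p = 3.47e-08, edgeR QL F test). In the 7 fits that each left out a mouse it was -5.33 to -4.88, and with LPS replicates 2 and 3 summed into 1 sample the gene was called lower as well. Per kilobase of exon, Serpina6 stood above Serpina7 in all 4 control mice, with 70.5 ± 13.0 against 16.0 ± 7.40 CPM per kb, while in LPS treated mice Serpina7 had 2.78 ± 1.24 and Serpina6 2.05 ± 0.627 CPM per kb, with overlapping ranges.

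Transferrin (Trf, ENSMUSG00000032554) binds ferric iron in plasma and delivers it to cells through transferrin receptors. Its level was 8825.8, 11816, 15259 and 13811 CPM in control mice and 20884, 27305 and 27692 CPM in LPS treated mice. Each LPS treated mouse was above each control mouse, with LPS replicate 1 lowest of its group and control replicate 1 lowest of all mice. Group means were 12428 ± 2785 (SD, n = 4) and 25294 ± 3824 CPM (SD, n = 3), for a log2FC of 1.03 (SE 0.23, 95% interval 0.52 to 1.53, BH-adjusted p = 0.00597, edgeR QL F test). Leaving out each mouse in turn gave log2FCs of 0.89 to 1.15, and the call held in each of these fits. The share of all counts was 0.833%, 1.24%, 1.59% and 1.54% in control mice and 2.21%, 2.48% and 2.50% in LPS treated mice (exact permutation p = 0.0286, two-sided). Set against albumin in the same liver, there were 23.3, 31.3, 24.8 and 27.4 counts of Trf per 100 counts of Alb in control mice, and 84.9, 111 and 112 in LPS treated mice. Per kilobase of exon, Alb still stood above Trf in all 3 LPS treated mice.

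Alpha-2-HS-glycoprotein or fetuin-A (Ahsg, ENSMUSG00000022868), which binds calcium phosphate and limits calcification of soft tissue, did not pass the test. Its level was 4074, 4159, 6078.8 and 5614.5 CPM in control mice and 5461.7, 6351 and 6331.6 CPM in LPS treated mice. The LPS treated mice lay in the upper part of the control range or just above it, and control replicates 1 and 2 were the low samples. The log2FC of Ahsg was 0.28 (SE 0.20, 95% interval -0.15 to 0.71, BH-adjusted p = 0.338, edgeR QL F test). The vitamin D-binding protein (Gc, ENSMUSG00000035540), which also binds actin released from damaged cells, had 6872.8, 6124.9, 7891 and 6704.7 CPM in control mice and 6586.8, 7540.4 and 7505.4 CPM in LPS treated mice. All 3 LPS treated mice fell inside the range of the control mice. The log2FC of Gc was 0.06 (SE 0.18, 95% interval -0.32 to 0.45, BH-adjusted p = 0.833, edgeR QL F test), and its sign was negative with total counts in place of TMM scaling (-0.06) and without control replicate 2 (-0.0036). For both genes the lower end of the interval is above the fitted log2FCs of Rbp4, Alb and Ttr.

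Paraoxonase 1 (Pon1, ENSMUSG00000002588), an esterase that travels on high density lipoprotein, had 868.9, 977.7, 982.7 and 882.9 CPM in control mice and 287.3, 309.7 and 284.1 CPM in LPS treated mice. Both groups were tight and far from each other, with a log2FC of -1.66 (SE 0.15, BH-adjusted p = 3.87e-06, edgeR QL F test) and a range of -1.70 to -1.63 with each mouse left out. Zinc-alpha-2-glycoprotein (Azgp1, ENSMUSG00000037053), a secreted protein with the fold of a major histocompatibility complex class I heavy chain, is linked to lipid breakdown in adipose tissue. It had 1875.9, 1697, 1776.8 and 1561.6 CPM in control mice and 1307.3, 1438.7 and 1443.9 CPM in LPS treated mice. Every LPS treated mouse was below every control mouse, but the difference was small and did not pass the test, with a log2FC of -0.31 (SE 0.15, 95% interval -0.64 to 0.02, BH-adjusted p = 0.164, edgeR QL F test). On shares of all counts, which use no scaling factor, the exact permutation p of Azgp1 was 0.0286. The same smallest possible p was reached by the shares of Ttr, Rbp4, Serpina6, Serpina7 and Pon1, all lower, and of Trf, higher, while the exact permutation p was 0.486 for Ahsg and 0.6 for Gc. These p values need all 7 mice: without LPS replicate 2 or 3, or with both summed, the smallest that 4 against 2 samples allow is 0.0667, and without control replicate 1 it is 0.1. How many of all tested genes reach 0.0286 on shares was not counted. On total counts without scaling factors all genes had a median log2FC of -0.129, with 2055 called lower and 1350 higher by edgeR. A lower share is thus not particular to the carrier genes. With mitochondrial genes left out of the total the exact permutation p was 0.771 for Ahsg and 0.0571 for Gc, whose shares were then 0.850%, 0.754%, 0.889% and 0.820% in control mice and 0.746%, 0.713% and 0.705% in LPS treated mice, with no overlap.

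Summed, the 10 carrier genes took 6.58%, 7.57%, 10.6% and 9.64% of all counts in control mice and 6.73%, 6.50% and 6.49% in LPS treated mice. The LPS treated mice were nearly alike, and control replicate 1 lay among them, so the groups overlapped. The means were 8.60% ± 1.85 (SD, n = 4) and 6.57% ± 0.132 (SD, n = 3), a ratio of 0.764. Its parts moved in opposite directions. Without Alb, the other 9 genes took 3.71% ± 0.530 (SD, n = 4) in control mice and 4.21% ± 0.0848 (SD, n = 3) in LPS treated mice, a ratio of 1.14. Here too the groups overlapped, with control replicate 3 at 4.193% and LPS replicate 1 at 4.116%. Without Alb and Trf, a choice made after the values were seen, the other 8 genes took 2.41% ± 0.185 and 1.82% ± 0.0759, a ratio of 0.755 with no overlap between groups. Alb made up 54.4%, 52.4%, 60.5% and 58.3% of the counts of all 10 genes in control mice and 38.8%, 34.4% and 34.3% in LPS treated mice, and Trf 12.7%, 16.4%, 15.0% and 16.0% against 32.9%, 38.2% and 38.5%. In the LPS treated mice, Alb and Trf thus held similar parts of the summed counts, which are not corrected for length. The total itself also changed in its parts: a list of 27 positive acute phase genes, 25 of them called higher, took 3.08% ± 0.618 (SD, n = 4) of all counts in control mice and 24.5% ± 2.62 (SD, n = 3) in LPS treated mice. With the counts of that list left out of the total, the ratio of the 10 carrier genes was 0.981, and with mitochondrial genes left out it was 0.698. Without mitochondrial genes the summed shares were 8.625%, 8.869%, 11.47% and 10.59% in control mice. In LPS treated mice they were 7.188%, 6.761% and 6.756%, so that the groups did not overlap on that total.

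**Figure D2:**
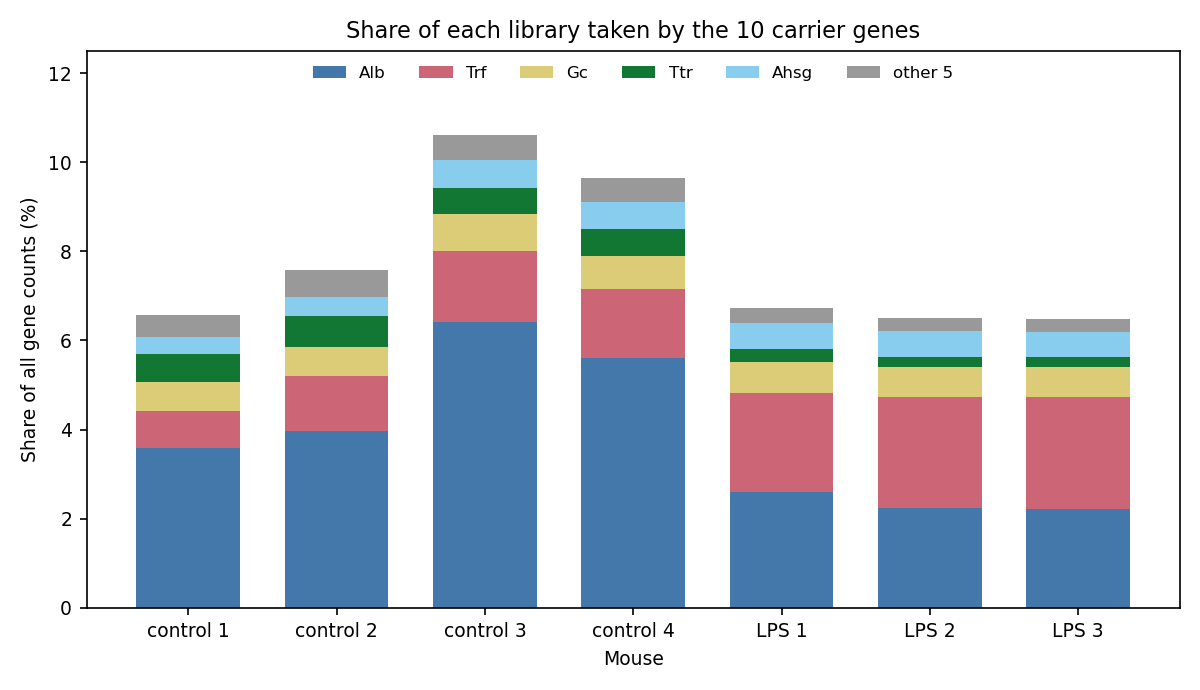
Percent of all counts of each library on the 10 carrier genes, stacked by gene, with the other 5 genes together in grey. The total is 6.58% to 10.6% in control mice and 6.49% to 6.73% in LPS treated mice, in which the part of Alb is smaller and that of Trf larger.

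Counts were also divided by the exon length of each gene, which allows levels of different genes to be set side by side. In CPM per kilobase, the order in control mice was Alb (20037 ± 4893), Ttr (5115 ± 578), Trf (3743 ± 839), Gc (3739 ± 398), Ahsg (2267 ± 463), Rbp4 (1808 ± 194), Azgp1 (1073 ± 82.5), Pon1 (320.2 ± 20.9), Serpina6 and Serpina7 (SD, n = 4). The ranges over mice overlapped between Trf and each of Ttr, Gc and Ahsg, and between Ahsg and Rbp4. Within single control mice, Ttr was above Trf in 4 of 4, Trf above Gc in 3 of 4 and Ahsg above Rbp4 in 2 of 4. In LPS treated mice the order in CPM per kilobase was Alb (10520 ± 11.1), Trf (7619 ± 1152), Gc (3908 ± 293), Ahsg (2753 ± 231), Ttr (2186 ± 92.2), Rbp4 (1104 ± 73.5), Azgp1 (867.5 ± 48.1), Pon1 (101.3 ± 4.82), Serpina7 and Serpina6 (SD, n = 3). Here the ranges overlapped only between Serpina7 and Serpina6. Ttr moved from the second place to the fifth, behind Trf, Gc and Ahsg. Among the control mice, replicate 1 was the lowest for 5 of the 10 genes and replicate 3 the highest for 5, in CPM. The part of the mitochondrial share in this spread was not tested.

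Relatives of the carriers were counted from a list of 14 genes, of which 11 were tested, with 1 lower, 2 higher and a median log2FC of 0.17. Counts for this list and those below stand beside 13.0% lower and 13.3% higher of all tested genes. Afamin (Afm), a vitamin E binding member of the albumin family, fell from a mean of 253.7 ± 24.5 (SD, n = 4) to one of 52.7 ± 9.43 CPM (SD, n = 3), for a log2FC of -2.27 (BH-adjusted p = 8.95e-07, edgeR QL F test). Alpha-fetoprotein (Afp), the fetal member of that family, was low in both groups, with a log2FC of 0.46 (BH-adjusted p = 0.395, edgeR QL F test). Fetuin-B (Fetub), the relative of Ahsg, had 691.5 ± 64.8 and 687.4 ± 29.1 CPM, a log2FC of -0.01 (SE 0.14) that was positive without a filter (0.0009287), without control replicate 1 (0.02), without control replicate 2 (0.02) and without LPS replicate 1 (0.03). Pon2 and Pon3, the relatives of Pon1, had log2FCs of 0.17 and 0.07 and did not pass the test, and the sign of Pon3 was negative with total counts (-0.06) and without LPS replicate 2 (-0.03). Serpina10, which encodes an inhibitor of coagulation factor Xa, rose with a log2FC of 2.05 (BH-adjusted p = 4.54e-06, edgeR QL F test). Lactoferrin (Ltf), an iron binding relative of Trf found in neutrophil granules, had 0, 0, 0 and 2 counts in control mice and 53, 57 and 41 counts in LPS treated mice. It was called higher on few counts, and with at least 10 counts required in every mouse 1 relative in place of 2 was higher.

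Receptors, enzymes and sensors that handle what the carriers bring were taken from a list of 28 genes. Of the 25 tested, 10 were lower and 4 higher, with a median log2FC of -0.47. Steroid 5-alpha-reductase (Srd5a1) fell by 3.04 on the log2 scale (BH-adjusted p = 2.19e-07) and Hsd11b1, which makes active glucocorticoid from its inactive form in liver, fell by 2.15 (BH-adjusted p = 7.76e-07, edgeR QL F test for both). Fkbp5, a target gene and regulator of the glucocorticoid receptor, rose from a mean of 12.1 ± 5.94 (SD, n = 4) to one of 181 ± 2.56 CPM (SD, n = 3), for a log2FC of 3.90 (BH-adjusted p = 1.07e-06, edgeR QL F test). Tsc22d3, another target gene of that receptor, did not pass the test, with a log2FC of -0.12 (BH-adjusted p = 0.781, edgeR QL F test) that was positive without control replicate 2 (0.08) and with the replicate number as a block (0.06). The receptor gene itself, Nr3c1, had a log2FC of -0.37 (BH-adjusted p = 0.0995) and passed the test, among the alternatives run, only without control replicate 1 (-0.48, BH-adjusted p = 0.0206, edgeR QL F test for both). On the side of iron, transferrin receptor 1 (Tfrc) rose from 11.1 ± 2.46 to 48.4 ± 3.67 CPM, a log2FC of 2.13 (BH-adjusted p = 2.59e-06, edgeR QL F test), while Tfr2, the transferrin receptor of hepatocytes, had 206.7 ± 30.6 and 232.6 ± 17.9 CPM and did not pass it. Slc11a2 was called higher (log2FC 0.79, BH-adjusted p = 0.0103) and Steap3 lower (log2FC -0.69, BH-adjusted p = 0.00677, edgeR QL F test for both). These calls of Slc11a2 and Steap3 were not followed over the alternative fits. On the side of thyroid hormone, deiodinase 1 (Dio1) had a log2FC of -1.30 (BH-adjusted p = 0.00176), and the hormone receptor gene Thrb one of -0.37 (BH-adjusted p = 0.136, edgeR QL F test for both). For vitamin A, Bco1, which cleaves beta-carotene, rose with a log2FC of 1.37 (BH-adjusted p = 3.35e-04), while 3 genes of retinoid storage and turnover were called lower: Dhrs3 (-0.93, BH-adjusted p = 3.32e-04), Cyp26a1 (-2.40, BH-adjusted p = 0.00259, and -1.64 without control replicate 1, which had 648 counts against 177, 213 and 246 in the other control mice) and Lrat (-1.33, BH-adjusted p = 0.0182, edgeR QL F test for each). Lrat lost its call without control replicate 4 (BH-adjusted p = 0.0524), LPS replicate 1 (0.0671) or LPS replicate 2 (0.0676) and with the replicate number as a block (0.0823, edgeR QL F test for each). Stra6l, the liver receptor for Rbp4, had 153.0 ± 7.78 and 144.6 ± 23.9 CPM and did not pass the test, and its log2FC of -0.08 was positive (0.05) without LPS replicate 1. Fcgrt, which rescues albumin from breakdown, had a log2FC of -0.30 (BH-adjusted p = 0.207, edgeR QL F test). The kidney receptors for filtered carriers were scarce: Lrp2 had a log2FC of -0.96 that did not pass the test (-0.31 without control replicate 1), and Cubn was not tested for want of counts.

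Liver transcription factors known to drive genes of secreted hepatocyte proteins were examined as a list of 19 genes, each of which was tested. Of these, 3 were lower, 5 were higher and 11 did not pass the test, with a median log2FC of 0.24. Cebpa, long known as an activator of the albumin gene, had 251.7 ± 21.4 CPM (SD, n = 4) in control mice and 174.3 ± 9.67 CPM (SD, n = 3) in LPS treated mice, for a log2FC of -0.53 (BH-adjusted p = 0.0127, edgeR QL F test). That call was lost without LPS replicate 2 (BH-adjusted p = 0.0545), without LPS replicate 3 (BH-adjusted p = 0.0553) and with both summed (BH-adjusted p = 0.0573, edgeR QL F test). The related Cebpb and Cebpd, which are induced in the acute phase response, rose with log2FCs of 0.92 (BH-adjusted p = 0.00299) and 2.34 (BH-adjusted p = 3.64e-04), and Stat3, which relays interleukin-6 signals, rose with one of 1.66 (BH-adjusted p = 2.98e-05, edgeR QL F test for each). Members of the same family were thus called in opposite directions. Hnf4a rose from 309 ± 61.4 to 516.6 ± 83.3 CPM, a log2FC of 0.74 (BH-adjusted p = 0.00961), with the BH-adjusted p at 0.0581 without LPS replicate 2, 0.0506 without LPS replicate 3 and 0.0533 with both summed (edgeR QL F test for each). Foxa3 rose with a log2FC of 0.89 (BH-adjusted p = 0.00285, edgeR QL F test), while Foxa2 had one of 0.24 (BH-adjusted p = 0.619) that passed, among the alternatives run, only without control replicate 3 (0.68, BH-adjusted p = 0.0191, edgeR QL F test for both). Foxa1 and Onecut1 were called lower, with log2FCs of -1.20 (BH-adjusted p = 0.044) and -2.19 (BH-adjusted p = 0.0226, edgeR QL F test for both), and in both genes control replicate 3 was far above the other mice. That mouse had 789 counts of Foxa1 against 210 to 285 in the other control mice, and 423 counts of Onecut1 against 48 to 155. Without it the log2FCs were -0.54 and -1.16, and both calls were lost without LPS replicate 1, 2 or 3 (BH-adjusted p of 0.112, 0.111 and 0.111 for Foxa1 and 0.0655, 0.0819 and 0.0604 for Onecut1, edgeR QL F test) and with LPS replicates 2 and 3 summed (BH-adjusted p of 0.113 and 0.0682, edgeR QL F test), and Foxa1 was not called by the Wald test of DESeq2 either (BH-adjusted p = 0.106).

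**Figure D3:**
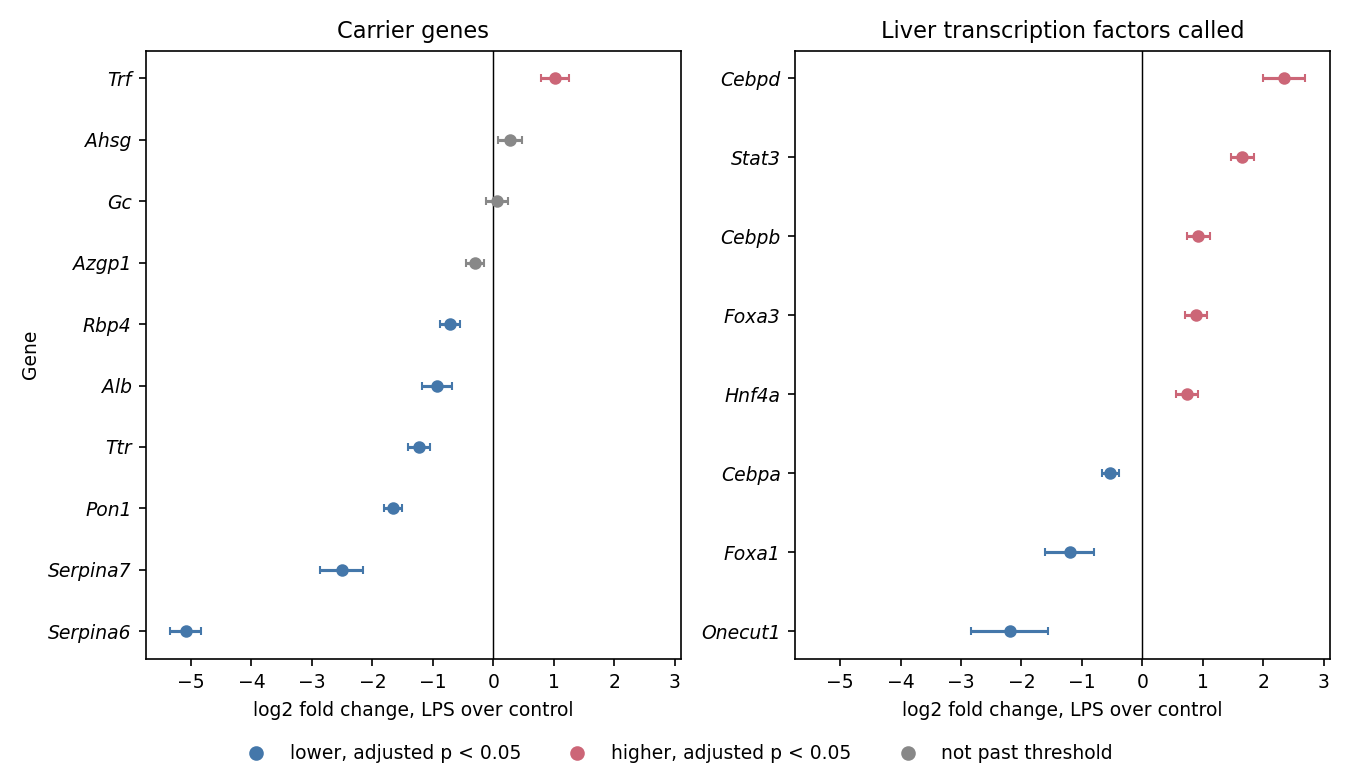
Log2FC, LPS over control, of the 10 carrier genes and of the 8 liver transcription factors that were called, with bars of 1 standard error from edgeR's fit. Carrier genes range from -5.09 for Serpina6 to 1.03 for Trf, and these factors from -2.19 for Onecut1 to 2.34 for Cebpd.

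Promoter sequences are shown because carrier genes that fell and carrier genes that did not pass the test can be read side by side. RefSeq windows of mouse build GRCm38.p6, from 250 bases before to 50 after a gene's start, were matched by symbol for 7 of the 10 genes (9 windows, with 2 each for Rbp4 and Serpina7), and Ttr, Trf and Serpina6 had no entry. The 2 windows of Serpina7 are 17 bases apart and share 283 bases, so their matches are the same sites, and matches are given here by gene. Motifs were searched on both strands as fixed letters, and no 2 matches within a window overlapped. The letters TTGCNNAA, a C/EBP motif, were found for 5 of the 7 genes (Alb, Serpina7, Pon1, Ahsg and Rbp4), and in 10.8% of all 32851 windows. TATAAA was found for 2 genes (13.6% of all windows), TGTTTAC and TGTTTGC, both FOXA motifs, for 1 and 2 genes (3.65% and 5.07% of all windows), GGGNNNTCC, an NF-kB motif, for 1 gene (17.8% of all windows), and TTATGTAA, the D-box, for 1 gene (0.938% of all windows). The HNF4 motif CAAAGTCCA and the STAT motif TTCNNNGAA were found for 0 genes (0.475% and 8.30% of all windows). The windows follow 5′ to 3′ along the gene, in lower case with motif matches in capitals. Alb lies on the plus strand at chr5:90460620-90460919, Serpina7 on the minus strand at chrX:139085170-139085469 (the second of its windows), Pon1 on the minus strand at chr6:5193897-5194196, Ahsg on the plus strand at chr16:22891765-22892064 and Gc on the minus strand at chr5:89457849-89458148.
Alb: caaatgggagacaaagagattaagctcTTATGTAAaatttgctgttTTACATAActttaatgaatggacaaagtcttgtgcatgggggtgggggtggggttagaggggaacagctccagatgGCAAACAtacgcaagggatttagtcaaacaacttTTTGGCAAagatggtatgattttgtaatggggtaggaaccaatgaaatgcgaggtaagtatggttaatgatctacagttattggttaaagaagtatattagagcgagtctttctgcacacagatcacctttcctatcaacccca
Serpina7: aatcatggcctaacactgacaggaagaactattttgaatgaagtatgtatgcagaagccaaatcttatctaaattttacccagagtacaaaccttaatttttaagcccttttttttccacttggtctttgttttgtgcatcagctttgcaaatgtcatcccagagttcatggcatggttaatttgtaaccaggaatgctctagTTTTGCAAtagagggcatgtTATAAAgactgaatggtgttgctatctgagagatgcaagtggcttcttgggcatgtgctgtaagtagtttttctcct
Pon1: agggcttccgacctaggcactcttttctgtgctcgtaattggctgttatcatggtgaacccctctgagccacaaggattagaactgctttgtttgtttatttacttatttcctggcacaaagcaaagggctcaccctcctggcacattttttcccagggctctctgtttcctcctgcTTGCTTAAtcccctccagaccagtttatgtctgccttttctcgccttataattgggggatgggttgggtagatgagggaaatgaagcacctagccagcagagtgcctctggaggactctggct
Ahsg: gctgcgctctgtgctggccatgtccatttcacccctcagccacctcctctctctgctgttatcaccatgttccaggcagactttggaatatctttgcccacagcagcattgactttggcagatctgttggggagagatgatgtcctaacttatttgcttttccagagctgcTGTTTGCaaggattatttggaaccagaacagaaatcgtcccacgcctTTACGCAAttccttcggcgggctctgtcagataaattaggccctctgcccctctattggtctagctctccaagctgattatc
Gc: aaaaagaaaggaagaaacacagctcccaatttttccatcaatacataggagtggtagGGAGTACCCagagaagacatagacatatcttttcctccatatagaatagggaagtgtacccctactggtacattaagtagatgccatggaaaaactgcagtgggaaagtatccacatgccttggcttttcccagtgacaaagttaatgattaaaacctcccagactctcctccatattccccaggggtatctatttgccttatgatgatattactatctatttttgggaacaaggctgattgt
The Alb window holds the D-box letters once on each strand, at positions -223 and -204 from the start, besides 1 C/EBP match at -94 and 1 FOXA match at -128. Gc holds the NF-kB letters on the other strand at -193. The C/EBP letters stand at -47 in Serpina7, -73 in Pon1 and -32 in Ahsg. Among the genes with a window, all that were called lower hold them (Alb, Rbp4, Serpina7 and Pon1). Of those that did not pass the test, Ahsg holds them and Gc and Azgp1 do not. These are too few genes for a comparison. A match describes letters in these windows and not a bound site.

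The carrier genes were set beside other secreted and intracellular products of the hepatocyte. Of 32 other plasma protein genes tested, 8 were lower and 7 higher, with a median log2FC of 0.16, and their summed share was 4.64% ± 0.223 (SD, n = 4) in control mice and 4.29% ± 0.146 (SD, n = 3) in LPS treated mice. Igfals, Serpinf1, Cpb2, Pros1 and Lcat had the smallest p in their direction, with log2FCs of -2.70, -1.54, 1.68, 1.36 and 1.36. Of the 27 positive acute phase genes, 25 were higher and 1, Mbl2, was lower (log2FC -1.16), with a median of 3.35. Among intracellular hepatocyte markers, enzymes of the urea cycle and of amino acid and sugar metabolism, 2 of 10 were lower and 3 higher, with a median of 0.12. Otc, an enzyme of the urea cycle, was lower with a log2FC of -2.01, while Fbp1 and Tat were higher, with log2FCs of 1.98 and 1.40.

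Markers of other cells of the liver moved as well. All 5 tested neutrophil genes were higher, and their list summed to 5.09, 4.04, 1.53 and 2.85 CPM in control mice and 191, 134 and 133 CPM in LPS treated mice, with S100a9 the largest part in LPS treated mice and the defining marker Ly6g at 0 in 5 of the 7 mice. Control counts of these genes were few, and with at least 10 counts required in every mouse 2 of them remained as higher calls. Of the Kupffer cell markers, 1 of 6 was lower and 2 higher, and the sums were 103, 157, 137 and 96.1 CPM against 188, 41.3 and 47.7 CPM, so LPS replicate 1 stood above replicates 2 and 3. Clec4f, the largest part of that sum in control mice but not in LPS treated mice, had a log2FC of -2.13, and of -3.09 without LPS replicate 1, a fit in which 4 of the 6 were lower. Adgre1, which encodes the macrophage marker F4/80, was higher, with a log2FC of 1.62 (BH-adjusted p = 0.00223, edgeR QL F test). The higher call of C1qa was lost without control replicate 1, control replicate 4, LPS replicate 1 or LPS replicate 3 (BH-adjusted p of 0.067, 0.0997, 0.26 and 0.0538), with the replicate number as a block (0.148) and with total counts in place of TMM scaling (0.0738, edgeR QL F test for each), which left 1 higher. For sinusoidal endothelium 2 of 6 were lower and 2 higher (sums of 96.3, 124, 78.9 and 108 against 134, 69.8 and 66.8 CPM), with log2FCs of -4.43 for Clec4g, 1.76 for Lyve1 and 1.28 for Pecam1. The lower count there was 1 without control replicate 2, control replicate 4, LPS replicate 2 or LPS replicate 3 and with LPS replicates 2 and 3 summed. For stellate cells 2 of 6 were lower and 1 higher (322, 257, 157 and 256 against 248, 189 and 180 CPM, with Dcn the largest part in both groups). Erythroid genes were lower in 4 of 5 (307, 183, 232 and 179 against 136, 53.8 and 53.7 CPM, with Hbb-bs the largest part of both group means), a count of 2 with DESeq2 or without control replicate 1, 2 or 3 and of 1 without LPS replicate 2 or 3 or with both summed. Cholangiocyte markers had 1 of 5 higher, Sox9 (sums of 29.9, 13.1, 7.94 and 17.0 against 20.8, 30.6 and 27.6 CPM). Sox9 itself rose from a mean of 7.225 ± 3.97 (SD, n = 4) to one of 20.26 ± 5.27 CPM (SD, n = 3). Krt19, Krt7, Epcam and Cftr had log2FCs of -1.14, -0.64, -0.34 and -0.69 and did not pass the test, and the median of the list was -0.64. Of the adipocyte and pancreas lists, which check for other tissue, only 1 gene each had enough counts to be tested, Cidec and Cela2a. Cidec was higher, from 1.41 ± 0.684 (SD, n = 4) to 11.6 ± 2.97 CPM (SD, n = 3), with a log2FC of 3.06 (BH-adjusted p = 4.35e-05, edgeR QL F test), and Cela2a did not pass the test, while Lep, Cpa1 and Prss2 were at 0 in every mouse. The adipocyte genes Adipoq and Plin1 had 5 and 2 counts in control replicate 1 and 0 in every other mouse, so they did not rise with Cidec. The part of these shifts in cell markers in the differences of the carrier genes was not tested.

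Some genes followed a carrier closely over the 7 mice. Among 1128 genes whose mean reached 100 CPM, those with the highest Pearson correlation of log2 CPM with Alb were Ephx1 (r = 0.997), Adi1 (r = 0.992) and Hadh (r = 0.992). For Serpina6, over 1129 genes, they were Gulo, Glul and Adh1, each at r = 0.998. The 7 mice fall into the control and LPS groups, so these values also hold the difference between the groups.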

How the data were processed

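Poly(A) RNA of 7 mouse livers was sequenced in strand-specific libraries. The authors deposited raw counts of reads per gene, which were not normalized. The submitters' processing notes name cutadapt 1.9.1, HISAT2 2.2.1, HTSeq 0.6.1, DESeq2 1.34.0 and build GRCm39. Counting options and the annotation release are not given in the sources used here. The carrier genes and all lists were chosen with earlier results of these data known.

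Counts were analysed in R 4.3.3 with edgeR 4.0.16: filterByExpr, TMM scaling, and the quasi-likelihood F test of LPS against control with no covariate and Benjamini-Hochberg adjustment over 13683 genes. Standard errors were derived from the F statistic. Shares were compared with two-sided exact permutation tests. Exon lengths were taken from GENCODE M21, which may differ from the authors' annotation. Methods were tested on simulated data. There edgeR's test recovered 4.48%, 40.9% and 81% of planted absolute log2 fold changes of 0.5, 1 and 2, and 4.71% of its calls were false. Genes that did not pass the test can thus still hold small differences. The floor of 3 counts covers counting error only.

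All carrier genes could be named, and liver transcription factors. From each other list these were the 3 called genes with the smallest p, the 2 of the other direction with the smallest p, and partners or relatives of a carrier. Other genes named in counts of markers, and Lrat, Dhrs3, Cyp26a1, Tsc22d3, Slc11a2 and Steap3, were chosen after their values were seen. Some results of these lists are not reported here.

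Fits were repeated with DESeq2 1.42.0, with RLE factors or total counts, without mitochondrial genes, without genes above 1% of counts in the library size, unfiltered, on genes with 10 or more counts in each sample, and with an adjusted p below 0.01, an absolute log2 fold change above 1, the replicate number as a block, each mouse left out, or LPS replicates 2 and 3 summed.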

Additional observations from a re-analysis of the deposited data

Results flagged for a closer look

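Samples standing far from the rest of their group were looked for among the 4 control mice, as the gap to the nearest mouse divided by the range of the group, against Dixon's 95% limit. By chance about 1 in 20 groups passes it, and 22 values were searched: the CPM and share of each carrier gene, their summed share and the mitochondrial share. For the share of counts of Serpina6 the value was 0.858, since control replicate 1 was at 0.00862% and the other control mice were at 0.0141% to 0.0150%, but for its CPM it was 0.685, which did not pass. For the CPM of Serpina7 it was 0.847, since control replicate 2 was at 66.1 CPM and the others were at 28.2 to 34.0 CPM, but for its share it was 0.794, which did not pass. Without control replicate 1 the log2 fold change of Serpina6 was -5.21, and without control replicate 2 that of Serpina7 was -2.14.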

How the results depend on the processing

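The number of carrier genes called lower was 6, and 4 to 6 with each mouse left out: 4 without LPS replicate 2, 5 without LPS replicate 3. It was 5 with LPS replicates 2 and 3 summed, beside 8.4% of all genes tested in that fit. It was 5 at an adjusted p below 0.01 (7.26% of all genes) and 4 with an absolute log2 fold change above 1 (7.31% of all genes). Trf was the 1 gene called higher in each of the 18 alternatives. Over all tested genes, 1773 were lower and 1824 higher, but 1146 and 1159 were lower without LPS replicates 2 and 3, and 993 were lower and 1091 higher at an adjusted p below 0.01. With total counts in place of TMM scaling the median of all genes moved from -0.01 to -0.13, with 2055 lower and 1350 higher, and that of the carrier genes was -0.94.

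The ratio of summed shares, 0.764, was 0.709 to 0.8288 with each mouse left out, 1.14 without Alb and 0.981 with the positive acute phase list left out of the total.

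Signs turned for genes with log2 fold changes near 0. With total counts Gc was at -0.0583 and Pon3 at -0.0604, without a filter Fetub was at 0.0009287, and with the replicate number as a block Tsc22d3 was at 0.06001. With each mouse left out, the ranges were -0.0036 to 0.131 for Gc (lowest without control replicate 2), -0.058 to 0.0302 for Fetub (above 0 without control replicate 1, control replicate 2 or LPS replicate 1), -0.0304 to 0.147 for Pon3 (lowest without LPS replicate 2), -0.171 to 0.0522 for Stra6l (highest without LPS replicate 1) and -0.3545 to 0.0788 for Tsc22d3 (lowest without control replicate 3, highest without control replicate 2). The cause was not tested.

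The groups share replicate numbers 1 to 3. Deviations from the group mean had an r of 0.18, -0.06 and 0.07 between mice of the same number. Between mice of different numbers r ran from -0.141 to 0.0974. So few values cannot decide whether the numbers pair the mice. With the replicate number as a block, 6 carrier genes were lower and 1 was higher, and 1587 and 1647 of all genes.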
